A study of Homo sapiens with 6 samples.

Results

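The vacuolar proton pump (V-ATPase), the Ragulator scaffold and the Rag GTPases sit together on the lysosomal membrane, and their transcripts are described here in macrophages. Members were taken by symbol: every deposited gene whose symbol starts with ATP6V0 or ATP6V1, the accessory genes ATP6AP1 and ATP6AP2, LAMTOR1 to LAMTOR5 and RRAGA to RRAGD. The rule found 33 of the 17513 deposited genes. They comprise 12 genes of the cytosolic V1 sector, 9 of the membrane V0 sector, 2 accessory proteins, 5 Ragulator subunits and 4 Rag GTPases. The remaining gene, ATP6V1FNB, is a neighbor of ATP6V1F and not a pump subunit, and it is kept apart.

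RNA sequencing of polyadenylated RNA gave 6 libraries in 2 groups of 3. Macrophages had been made from THP1, an established line of human monocytic leukemia, per the series text. Both groups then spent 48 h in culture medium taken from KYSE150, an established line of human esophageal squamous cell carcinoma. The KYSE150 cells carried either the control hairpin shNC or the hairpin shSPP1#2, aimed at SPP1, which encodes the secreted protein osteopontin. The groups are called shNC medium and shSPP1#2 medium here. The knockdown was made in the carcinoma cells, so these libraries do not check it; shSPP1#2 is the sole hairpin against SPP1, and no label says that replicates were separate cultures. P-values therefore measure the spread between these libraries, which may be technical.

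The sample labels name KYSE150 itself as the source, whereas the RNA was that of myeloid cells. Of 14 monocyte and macrophage markers 13 reached 1 FPKM (fragments scaled to transcript length and library total) in each library, and the list summed to 2617 to 2821 FPKM in shNC medium and 2547 to 2626 FPKM in shSPP1#2 medium. MRC1 was the exception, at 0.01 to 0.03 FPKM, and CD163 was only just above 1 FPKM, at 1.33 to 1.69 FPKM. Of 14 squamous epithelial markers 13 were present and 0 reached 1 FPKM, and their sum was at most 1.86 FPKM in any library. On other lists, 2 to 3 of 7 T and NK cell, 2 of 6 fibroblast, 1 of 5 endothelial and 0 of 5 B cell markers reached 1 FPKM. Some of these were high: GNLY at 214 to 274 FPKM, PECAM1 at 132 to 142 FPKM and COL1A1 at 16.3 to 19.1 FPKM. The smallest library held 18113591 estimated counts and the largest 20626346. Members took 0.324% to 0.334% of a library, or 60273 to 68198 counts. In a bulk library fewer cells of a type and less RNA per cell cannot be told apart.

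The V-ATPase couples ATP hydrolysis in its V1 sector to proton transport through its V0 sector, and this acidifies lysosomes, endosomes and phagosomes. In macrophages that acid activates the hydrolases that digest engulfed material. Ragulator anchors the Rag GTPases to the lysosome and contacts the pump; Rags pair as RagA or RagB with RagC or RagD. When amino acids are plentiful the loaded pair recruits the growth-controlling kinase complex mTORC1 to the lysosome. Many lysosomal genes carry a CACGTG core in the promoter, the sequence bound by TFEB, TFE3 and MITF.

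That core was searched in RefSeq promoters (GRCh38.p14, 250 bases before to 50 bases after each annotated start), which were at hand for 23 of the 33 members. The motif reads the same on both strands. It lay in at least 1 promoter of 8 of the 23 members (34.8%), against 8.77% of 27305 genes with a promoter and 12.43% of the 11055 that were also tested for expression. The extended form TCACGTGA lay in 3 of the 23, against 1.18% of all and 2.12% of tested genes, and the CLEAR palindrome, which adds a G before it and a C after it, in 2 (8.7%, against 0.42% of all and 0.83% of tested genes). These longer forms contain the core, so the 3 counts overlap. A match is a description of the letters and not of a bound site. The windows are shown because the motif is a feature that the choice of genes did not use; capitals mark the longest of the 3 forms, with up to 20 bases on either side and none past the annotated start.
ATP6V0B, chr1:43974883-43974928, plus strand: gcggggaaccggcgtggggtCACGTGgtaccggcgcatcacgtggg
ATP6V0D1, chr16:67481191-67481236, minus strand: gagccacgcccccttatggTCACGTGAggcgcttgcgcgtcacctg
ATP6V0E2, chr7:149872876-149872921, plus strand: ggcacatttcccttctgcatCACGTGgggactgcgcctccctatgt
ATP6V1G1, chr9:114587691-114587736, plus strand: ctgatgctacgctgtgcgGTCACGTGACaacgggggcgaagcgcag
LAMTOR1, chr11:72103437-72103482, minus strand: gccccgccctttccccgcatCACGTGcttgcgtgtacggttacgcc
LAMTOR4, chr7:100148884-100148917, plus strand: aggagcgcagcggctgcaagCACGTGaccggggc
RRAGB, chrX:55717704-55717748, plus strand: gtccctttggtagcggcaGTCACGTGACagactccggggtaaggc
RRAGC, chr1:38859859-38859904, minus strand: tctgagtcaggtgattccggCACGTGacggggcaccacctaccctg
The core began 57 bases before the start in ATP6V0B, 59 in ATP6V0D1, 58 in ATP6V1G1, 165 in LAMTOR1, 14 in LAMTOR4, 25 in RRAGB and 112 in RRAGC. In ATP6V0E2 it began 68 or 72 bases before, depending on which of 2 annotated starts is used. ATP6V0B held another copy 39 bases before its start, seen in lower case at the end of its window, and RRAGB another at 115 bases and 1 just past its start. The holders ranged from ATP6V0B, the most abundant member, to ATP6V0E2, which stayed below 1 FPKM.

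Pump and Ragulator transcripts were abundant: 22 of the 33 members had a mean of at least 10 FPKM and 8 of at least 100 FPKM. Below 3 FPKM lay 9 members, all of them the minor paralog of another member, apart from ATP6V0A4, which has several paralogs, and ATP6V1FNB, which has no part in the pump. FPKM is a level per transcript length, so members can be set side by side within a library.

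**Figure D1:**
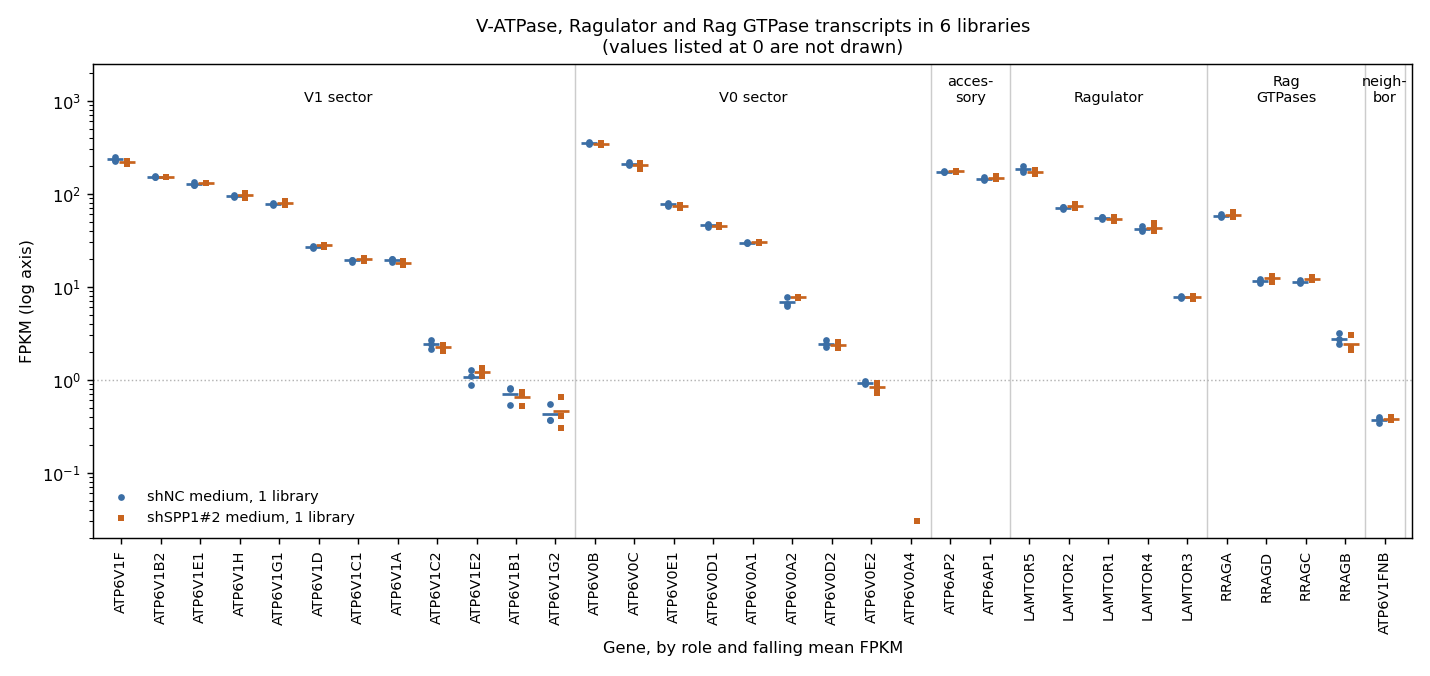
FPKM (log axis) of the 33 members, by role and falling mean; circles are the 3 libraries of shNC medium, squares the 3 of shSPP1#2 medium, short bars the group means, and the dotted line 1 FPKM. Levels run from ATP6V0B near 349 FPKM to ATP6V0A4, seen in a single library, and within a gene the 2 groups lie close together.

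In the V1 sector, the part that hydrolyses ATP, the most abundant transcript was ATP6V1F, which encodes a subunit of the central rotor stalk. Its libraries, in the order of their replicate numbers here and below, gave 228, 251 and 226 FPKM with shNC medium and 223, 210.1 and 223 FPKM with shSPP1#2 medium. Each shNC library thus lay above each shSPP1#2 library. ATP6V1B2, the nucleotide-binding B subunit, followed with 152, 151 and 153 FPKM in shNC medium and 151, 152 and 152 FPKM in shSPP1#2 medium, with the groups intermixed. Its catalytic partner ATP6V1A, which alternates with B in the head of the enzyme, stood far lower: 20.1, 18.5 and 19.7 FPKM in shNC medium and 18.7, 17.3 and 17.9 FPKM in shSPP1#2 medium. The shSPP1#2 values were low, although replicate 1 exceeded the lowest shNC library. Per library the FPKM of ATP6V1B2 was 7.56 to 8.77 times that of ATP6V1A.

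Peripheral stalk subunits, which hold the head still while the rotor turns, were also strongly expressed. ATP6V1E1 measured 134, 124 and 125 FPKM in shNC medium and 132, 132 and 131 FPKM in shSPP1#2 medium. ATP6V1G1, the G subunit bound to E, measured 79.6, 77.2 and 75.8 FPKM against 83.0, 80.3 and 76.5 FPKM. Both genes had overlapping groups. The C subunit gene ATP6V1C1, which closes the link between head and stalk, reached 19.5, 18.5 and 19.6 FPKM in shNC medium and 19.7, 18.9 and 20.4 FPKM in shSPP1#2 medium, again overlapping. ATP6V1H, which joins the sectors and restrains free V1, ran from 90.5 to 102 FPKM, and the rotor gene ATP6V1D from 26.3 to 28.4 FPKM.

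The V0 sector holds the proton-carrying ring, and its 2 ring genes stood high, above and below ATP6V1F in mean level. ATP6V0B, the c'' ring subunit, measured 346, 361 and 349.7 FPKM in shNC medium and 338, 347 and 349 FPKM in shSPP1#2 medium. ATP6V0C, which makes up most of the ring, measured 209, 217 and 204 FPKM and 209, 212 and 184 FPKM. The lowest ATP6V0C value was that of shSPP1#2 replicate 3, and the other 5 libraries overlapped. ATP6V0E1, a small membrane subunit, reached 80.2, 76.6 and 74.2 FPKM in shNC medium and 69.7, 76.2 and 73.1 FPKM in shSPP1#2 medium. Its groups overlapped too, with shSPP1#2 replicate 1 the lowest. ATP6V0D1, which seats the rotor on the ring, measured 46.6, 47.7 and 43.8 FPKM against 45.2, 46.4 and 43.8 FPKM.

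Of the large a subunits, which route the pump to a compartment, ATP6V0A1 measured 29.6, 29.8 and 30.1 FPKM in shNC medium and 30.5, 29.9 and 30.6 FPKM in shSPP1#2 medium. ATP6V0A2, known from the Golgi, lay at 6.23, 6.57 and 7.70 FPKM and at 7.73, 7.70 and 7.64 FPKM. FPKM and counts diverged for this gene: the effective length implied by its count and FPKM ran from 4545 to 5567 bases over the libraries, so its FPKM and its counts need not move together. ATP6V0A4, the form of the kidney, was at 0 counts in 5 libraries and at 2 in shSPP1#2 replicate 3, below the floor of 3 counts used here for a group at 0, so no fold is given.

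The accessory proteins, which help the pump to assemble and travel, were near the top of the list. ATP6AP2, also known as the prorenin receptor, measured 177, 169.6 and 173 FPKM in shNC medium and 172, 177 and 176 FPKM in shSPP1#2 medium. ATP6AP1 measured 146, 149.9 and 142 FPKM and 147, 157 and 143 FPKM. For both genes the groups were intermixed.

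Ragulator subunits, which form 1 complex, differed widely in transcript level. LAMTOR5, a roadblock-fold subunit, measured 180.5, 197 and 172 FPKM in shNC medium and 179, 173 and 165 FPKM in shSPP1#2 medium; shNC replicate 2 was highest and shSPP1#2 replicate 3 lowest. LAMTOR2, which pairs with LAMTOR3, measured 69.0, 72.5 and 72.0 FPKM against 70.1, 76.7 and 74.0 FPKM. LAMTOR1, the lipid-anchored subunit that wraps around the others and ties them to the membrane, reached 56.8, 55.9 and 53.9 FPKM in shNC medium and 50.4, 56.3 and 52.4 FPKM in shSPP1#2 medium. Its groups overlapped. LAMTOR4 ran from 39.5 to 48.1 FPKM. LAMTOR3 was the lowest of the 5, at 7.46 to 8.05 FPKM, and LAMTOR5 exceeded it 20.5 to 25.99 times within a library.

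Among the Rag GTPases, which pass the amino acid signal on, RRAGA dominated. It measured 57.8, 60.1 and 56.4 FPKM in shNC medium and 57.1, 63.9 and 55.9 FPKM in shSPP1#2 medium. Its near copy RRAGB lay at 2.40, 2.72 and 3.21 FPKM and at 2.24, 2.11 and 3 FPKM. RRAGC and RRAGD, which encode the alternative partners of RagA and RagB, were expressed at like levels. RRAGC measured 11.9, 11.3 and 11.01 FPKM in shNC medium and 11.9, 11.8 and 12.7 FPKM in shSPP1#2 medium, and RRAGD 12.2, 11.6 and 11.1 FPKM and 12.6, 13.1 and 11.4 FPKM. Groups overlapped for all 4 Rag genes.

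Several pump subunits are encoded by paralogs of different tissue range, and in these macrophages 1 form prevailed in 8 of the 9 paralog groups examined. Shares of summed FPKM within a group are given as means over the 3 libraries of shNC and of shSPP1#2 medium. For the a subunit the major form was TCIRG1, the a3 form of lysosomes and of the osteoclast border, which the symbol rule leaves out. It measured 176 to 193 FPKM and held 84.0% ± 0.42 and 82.9% ± 0.75 of the group (SD, n = 3 each). ATP6V0A1 held 13.1% and 13.7%, and ATP6V0A2 2.99% and 3.46%. ATP6V0D1 held 94.95% and 95.03% of the d subunit, ATP6V0E1 98.8% and 98.9% of the e subunit, and ATP6V1B2 99.5% and 99.6% of the B subunit.

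Minor paralogs were detected but scarce, and the groups overlapped for each of them. ATP6V1B1, the B form of kidney and inner ear, measured 0.79, 0.53 and 0.81 FPKM with shNC medium and 0.52, 0.74 and 0.69 FPKM with shSPP1#2 medium, on 19 to 32 counts. ATP6V1C2, the other C subunit, measured 2.40, 2.14 and 2.68 FPKM and 2.34, 2.06 and 2.29 FPKM. It held 11.1% ± 0.84 and 10.2% ± 0.39 of its group (SD, n = 3 each). ATP6V1E2, best known from testis, measured 1.09, 1.26 and 0.88 FPKM and 1.33, 1.11 and 1.22 FPKM. ATP6V1G2, best known from brain, measured 0.37, 0.55 and 0.37 FPKM and 0.41, 0.30 and 0.66 FPKM. ATP6V0E2, the other e subunit, measured 0.90, 0.92 and 0.96 FPKM and 0.84, 0.92 and 0.72 FPKM. Another G gene, ATP6V1G3, was looked for and was not among the 17513 genes.

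ATP6V0D2, the d form of osteoclasts and kidney, measured 2.69, 2.40 and 2.25 FPKM in shNC medium and 2.52, 2.19 and 2.36 FPKM in shSPP1#2 medium. Of 7 osteoclast markers 6 were present and reached 1 FPKM in each library. The matrix protease MMP9 measured 752 to 859 FPKM, and the fusion proteins OCSTAMP and DCSTAMP 186 to 221 and 126 to 147 FPKM. The osteoclast phosphatase ACP5 measured 1.23 to 2.05 FPKM and the collagen-degrading CTSK 7.58 to 8.69 FPKM. CALCR was looked for and was not among the 17513 genes. The marker list summed to 1158 to 1218 FPKM in shNC medium and 1088 to 1198 FPKM in shSPP1#2 medium, so its ranges overlapped.

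RRAGC and RRAGD formed the single balanced paralog group. RRAGD held 50.5% ± 0.25 of it in shNC medium and 50.4% ± 2.71 in shSPP1#2 medium (SD, n = 3 each), with 47.4% in shSPP1#2 replicate 3 and 52.5% in replicate 2. RRAGA held 95.4% ± 0.73 and 96.0% ± 0.97 of the group of RRAGA and RRAGB. For 1 share in each of the 9 groups, that of the most abundant paralog, shNC and shSPP1#2 libraries were set against each other with an exact permutation test (two-sided), which cannot go below p = 0.1 with 3 against 3. The smallest exact permutation p was 0.2, for TCIRG1 (-1.10 percentage points in shSPP1#2 medium) and for ATP6V1C1 (0.94 percentage points). The value of ATP6V1C1 fell to 0.352 points with estimated counts in place of FPKM and to 0.486 points without shNC replicate 3, and the effective length of ATP6V1C2 ran from 2337 to 3119 bases over the libraries. All 9 had an adjusted exact permutation p of at least 0.9.

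**Figure D2:**
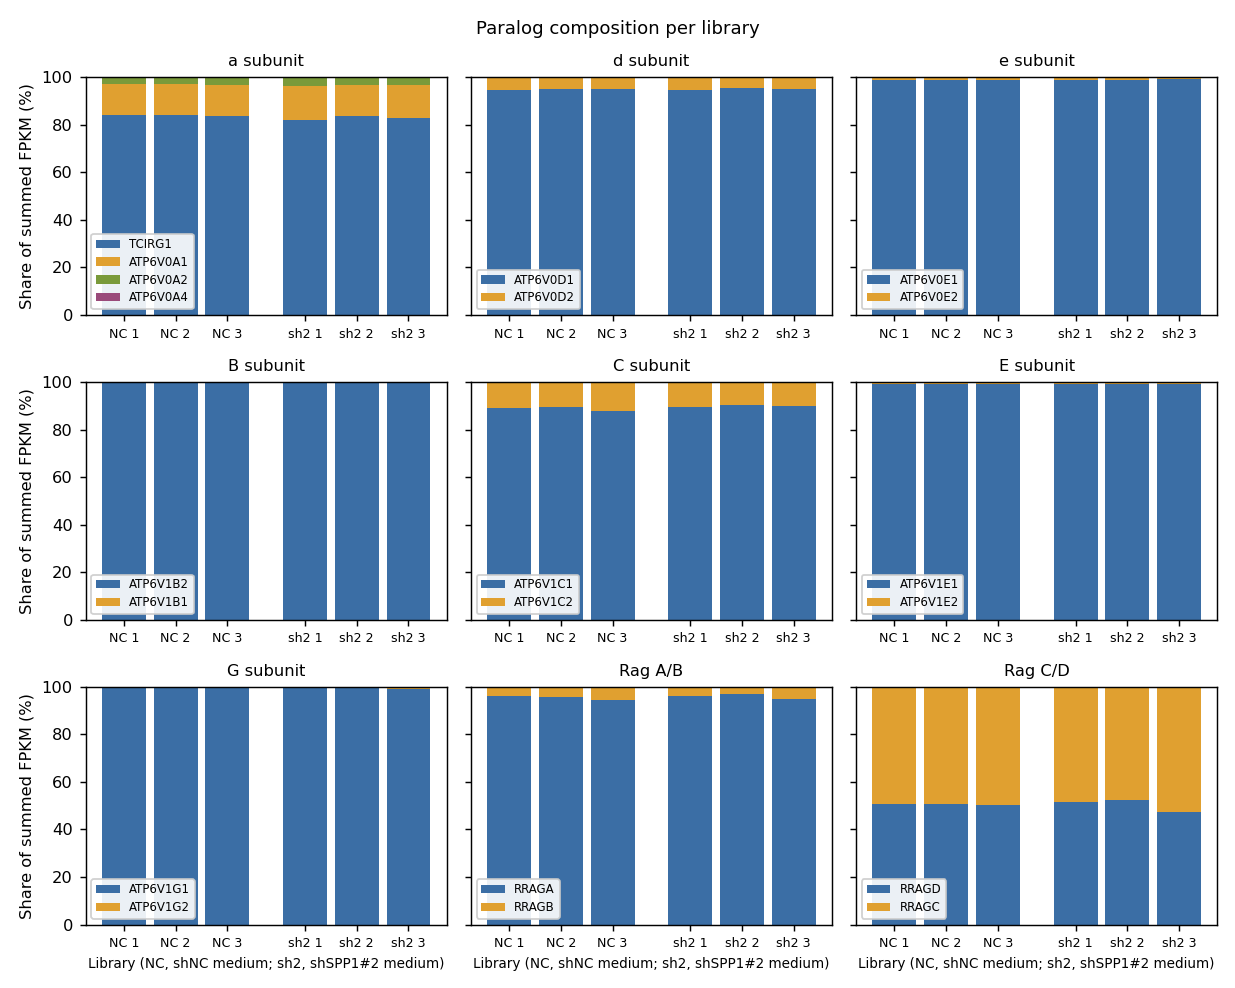
Share of each paralog in the summed FPKM of its group (%), 1 stacked bar per library; NC stands for shNC medium and sh2 for shSPP1#2 medium. One paralog fills most of the bar in 8 groups, whereas RRAGC and RRAGD split theirs about evenly in all 6 libraries.

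No member rose or fell between the media by the test used. Of the 33 members 32 passed the filter on low counts, ATP6V0A4 being left out. With edgeR's quasi-likelihood test 0 of the 32 had an adjusted p below 0.05, beside 0 of all 13555 genes tested (0.0%), and the smallest adjusted p among members was 0.633. At an unadjusted p under 0.05 there were 2 members, both lower in shSPP1#2 medium, beside 6.85% of all genes in either direction and 3.39% lower. DESeq2 called 0 of the 18 members to which it gave an adjusted p, beside 13 of 4265 genes (0.305%). At an unadjusted DESeq2 p under 0.05 there were 2 members, beside 2.88% of the 17480 genes with a DESeq2 p, scarce genes included. The log2 fold changes, shSPP1#2 minus shNC medium, were positive for 16 members and negative for 16. Their median was 0.0052, beside -0.0003 over all genes, and their median size was 0.054, beside 0.062. With a block for replicate number edgeR called 59 of the 13555 genes and 0 of the 32 members.

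In the main fit the libraries set narrow limits on the abundant members, judged by a spread between libraries that may be technical. Intervals with the trend over effective length removed are not given here. Of the 24 with a mean of at least 4 log2 CPM (counts scaled to library total), all 24 had a 95% interval within 0.25 of 0 on the log2 scale, or 1.19-fold, as did 88.3% of the 7730 genes above that level. Their intervals reached from -0.22 at the lowest to 0.21 at the highest. The median standard error was 0.051. Intervals were wider for the scarce paralogs: that of ATP6V1G2 ran from -0.75 to 0.89, of ATP6V1B1 from -0.74 to 0.36 and of ATP6V0E2 from -0.70 to 0.30.

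**Figure D3:**
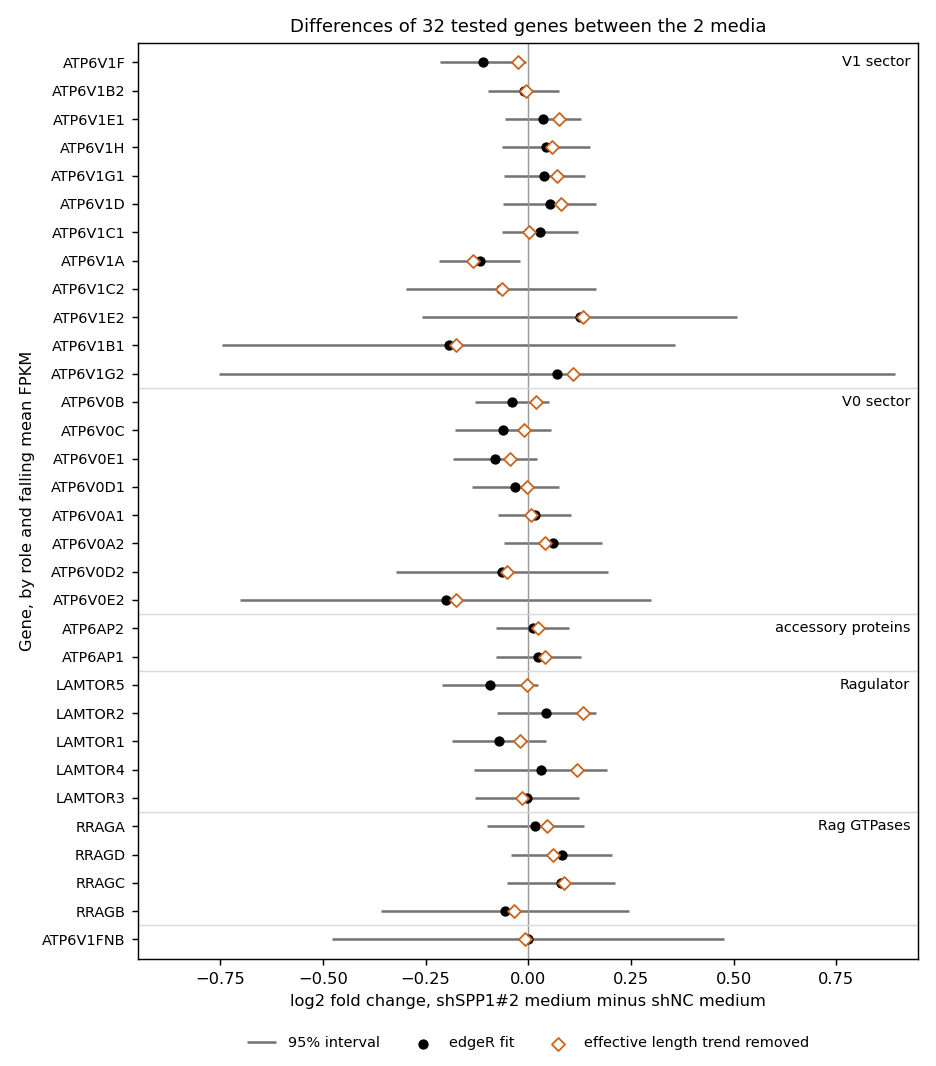
Log2 fold change of the 32 tested members, shSPP1#2 minus shNC medium, by role; filled circles with bars are the edgeR values and 95% intervals, open diamonds the values with each library's trend over effective length removed. The circles lie between -0.20 and 0.12, and the bars of ATP6V1A and ATP6V1F alone stay below 0.

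ATP6V1A, the catalytic subunit, had the smallest p of the members. Its gene spans 113747019 to 113812056 of chromosome 3, plus strand (GENCODE v29, GRCh38). On the log2 CPM scale the shNC libraries lay at 6.497, 6.410 and 6.481 and the shSPP1#2 libraries at 6.402, 6.307 and 6.326, so the groups just failed to touch. The log2 fold change was -0.12, the standard error 0.047 and the 95% interval -0.22 to -0.020, with an edgeR adjusted p of 0.633. Scaled by total count, or in FPKM, its groups overlapped. With each library left out in turn the value ran from -0.15 to -0.10. ATP6V1B2, its partner in the head, had a log2 fold change of -0.011 (-0.098 to 0.076).

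ATP6V1F, the rotor stalk subunit, was the other member whose groups did not overlap. These are 2 of 32 members (6.2%), both lower in shSPP1#2 medium, beside 11.1% of all tested genes in either direction, 5.63% higher and 5.5% lower. The gene spans 128862826 to 128865844 of chromosome 7, plus strand, inside the span of KCP on the minus strand, and reads of the overlap cannot be told apart where strand was not used in counting. Its log2 fold change was -0.11 (95% interval -0.21 to -0.0053, edgeR adjusted p = 0.706). Without shNC replicate 2, the highest library, it was -0.054, and with the trend over effective length removed it was -0.025. Other members also overlap the spans of protein-coding genes. Among them, ATP6V0C lies inside AC093525.2 and ATP6V1B1 mostly inside VAX2, each on the same strand. LAMTOR1 lies inside LRTOMT on the opposite strand. Spans and not exons were compared, and the effect on the counts was not tested.

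The other members of the V1 sector had log2 fold changes on both sides of 0, 7 of the 12 positive. ATP6V1D measured 0.052 (-0.062 to 0.17), ATP6V1H 0.043 (-0.064 to 0.15), ATP6V1G1 0.039 (-0.058 to 0.14) and ATP6V1E1 0.035 (-0.057 to 0.13). Summed over the sector, the level was 757 ± 12.5 FPKM in shNC medium and 749 ± 11.2 FPKM in shSPP1#2 medium (SD, n = 3 each), a difference smaller than either SD.

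In the V0 sector 6 of 8 tested members had a negative log2 fold change. ATP6V0E1 measured -0.081 (-0.18 to 0.021), ATP6V0C -0.061 (-0.18 to 0.056) and ATP6V0B -0.040 (-0.13 to 0.051), each with an edgeR adjusted p above 0.8. ATP6V0A2 measured 0.060 (-0.059 to 0.18) in counts and 0.15 on the log2(FPKM + 1) scale. The summed level was 725 ± 15.5 FPKM and 706 ± 15.7 FPKM (SD, n = 3 each), with 691 FPKM in shSPP1#2 replicate 3 and 743 FPKM in shNC replicate 2 at the ends. This difference was larger than either SD, although the libraries of the 2 groups overlapped. ATP6V0B and ATP6V0C, the most abundant genes in this sum, have short transcripts (effective lengths of 945 and 1044 bases). With the trend over effective length removed they measured 0.019 and -0.0094, and ATP6V0E1 measured -0.045. The effect of that trend on the summed level was not tested. ATP6V0C, ATP6V0E1, ATP6V1E1, ATP6V1G1, LAMTOR3 and LAMTOR5 have pseudogenes named after them in GENCODE v29, which makes their estimated counts less certain.

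The accessory proteins stayed close to 0, with ATP6AP1 at 0.024 (-0.078 to 0.13) and ATP6AP2 at 0.011 (-0.078 to 0.10). Their summed level was 319 ± 4.09 FPKM and 324 ± 8.80 FPKM (SD, n = 3 each).

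Within Ragulator, the log2 fold change was -0.093 (-0.21 to 0.024) for LAMTOR5 and -0.071 (-0.19 to 0.043) for LAMTOR1, whereas LAMTOR2 measured 0.044 (-0.077 to 0.17), LAMTOR4 0.030 (-0.13 to 0.19) and LAMTOR3 -0.0042 (-0.13 to 0.12). None had an edgeR adjusted p below 0.803. Without shNC replicate 2 the value of LAMTOR5 was -0.029. The summed level was 360 ± 15.0 FPKM and 350.1 ± 10.03 FPKM (SD, n = 3 each).

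RRAGC and RRAGD, the paralogs at like level, had like values of 0.080 (-0.051 to 0.21) and 0.081 (-0.043 to 0.20). With single libraries left out, RRAGC ran from 0.050 to 0.11, and RRAGD from 0.030 to 0.15, its ends being the values with shSPP1#2 replicate 2 or replicate 3 omitted. RRAGA measured 0.017 (-0.10 to 0.13) and RRAGB -0.056 (-0.36 to 0.25), and both changed sign with single libraries left out. The summed level of the 4 was 83.9 ± 2.00 FPKM and 85.9 ± 4.32 FPKM (SD, n = 3 each). ATP6V1FNB, which is no subunit, stayed at 0.34 to 0.40 FPKM.

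The 8 members with a CACGTG core in the promoter did not share a direction. ATP6V1G1, with the full palindrome shown above, measured 0.039, and RRAGB, which also has it, -0.056. ATP6V0D1, with TCACGTGA, measured -0.032. LAMTOR4 and RRAGC were positive and ATP6V0B, ATP6V0E2 and LAMTOR1 negative, with none called. TFEB, a factor known to bind that core, measured 12.8, 14.4 and 12.7 FPKM in shNC medium and 12.1, 12.8 and 11.4 FPKM in shSPP1#2 medium, with a log2 fold change of -0.14 (-0.30 to 0.014, edgeR adjusted p = 0.764). Its relatives had values on both sides of 0 and none was called: TFE3 measured -0.043 (-0.15 to 0.062), MITF -0.018 (-0.17 to 0.14) and TFEC 0.11 (-0.0049 to 0.23).

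Transcript length moved with the differences among all genes, and among members in the short class only. Effective length was taken as the length implied by count and FPKM. Among genes with a mean of at least 4 log2 CPM the median log2 fold change was -0.071 for 552 genes under 1100 bases, -0.018 for 2930 genes of 1100 to 3000 bases and 0.022 for 4248 genes over 3000 bases. The 7 short members, ATP6V1F, ATP6V0B, ATP6V0C, LAMTOR1, LAMTOR2, LAMTOR4 and LAMTOR5, had a median of -0.061, near that of all short genes. Among them LAMTOR2 (0.044) and LAMTOR4 (0.030) were positive. The 11 members of 1100 to 3000 bases had a median of 0.0245 and the 6 longer ones of 0.0221, with no further rise. Short genes stood highest in shNC replicate 2, by a median of 0.099 over the mean of the 6 libraries, and lowest in shSPP1#2 replicate 3, at -0.074; the short members stood at 0.070 and -0.068 in the same libraries.

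With each library's trend over effective length removed, the short members shifted upward. Such a shift follows from the subtraction itself, because short genes as a whole had a negative median (-0.071). LAMTOR5 went from -0.093 to -0.0028, ATP6V0C from -0.061 to -0.0094, LAMTOR1 from -0.071 to -0.019 and ATP6V0B from -0.040 to 0.019. LAMTOR2 and LAMTOR4 went to 0.13 and 0.12. ATP6V1A, a long transcript with an effective length of 4525 bases, lay at -0.14 after removal. Still 0 members had an adjusted p below 0.05, with 0.591 for ATP6V1A (edgeR).

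**Figure D4:**
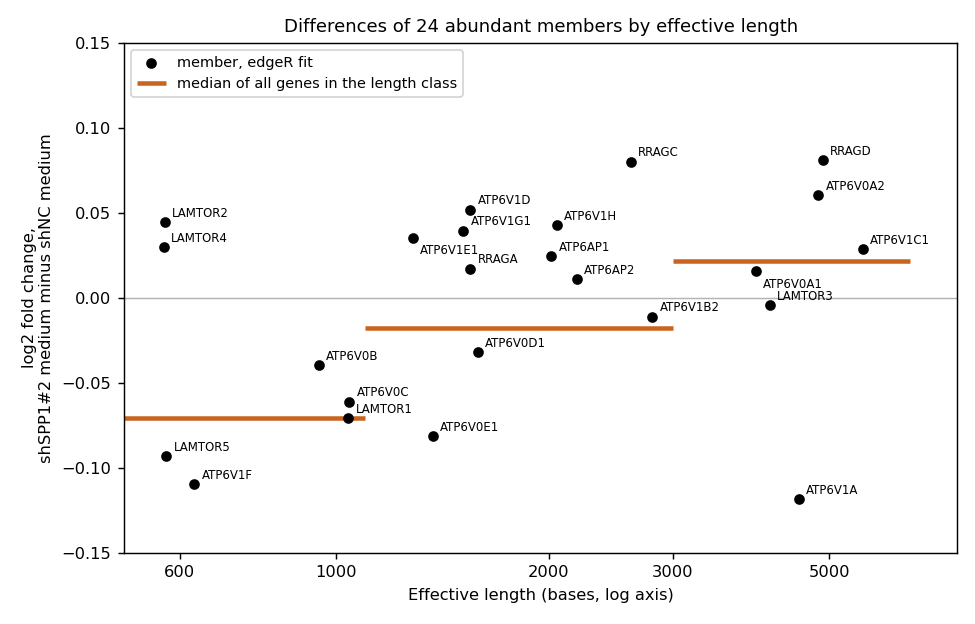
Log2 fold change of the 24 members with at least 4 log2 CPM against effective length (bases, log axis), shSPP1#2 minus shNC medium; points are members and thick lines the medians of all genes in the 3 length classes. ATP6V1F and LAMTOR5 lie near the low median of short genes, whereas ATP6V1A lies low among long ones.

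Other genes of the pathway were read from the same fit: partners that assemble the pump, mTORC1, lysosomal carriers, amino acid sensors and the complexes between them. Of 66 genes, all present, 64 were tested, and 0 had an edgeR adjusted p below 0.05, beside 0.0% of all genes. At an unadjusted edgeR p under 0.05 there were 8 of the 64, 6 higher and 2 lower in shSPP1#2 medium. That share was above the 6.85% of all genes in either direction (3.39% lower). The list was chosen with earlier results of these data known, so no conclusion is drawn from this difference, and it was not tested. The median log2 fold change of the 64 was 0.0071, with 37 positive and 27 negative. SLC7A5, a plasma membrane carrier that feeds leucine to this pathway, had the smallest p. It measured 49.5, 50.3 and 50.4 FPKM in shNC medium and 59.1, 57.7 and 56.2 FPKM in shSPP1#2 medium, with the groups apart. Its log2 fold change was 0.21 (0.12 to 0.30, edgeR adjusted p = 0.171), and it was called by DESeq2 (adjusted p = 0.00624).

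Of the other genes by smallest p, the leucine sensor SESN2 measured 0.15 (0.046 to 0.26) on the log2 scale, the mTORC1 subunit MLST8 of 0.17 (0.051 to 0.28), NCOA7, which binds the V1 sector, of 0.21 (0.079 to 0.34) and DMXL2, a factor that assembles the pump, of 0.17 (0.044 to 0.30). BLOC1S1, a subunit of the complex that positions lysosomes, measured -0.24 (-0.38 to -0.10), and -0.14 with the length trend removed. Their edgeR adjusted p lay between 0.483 and 0.601. The most abundant were TCIRG1 at 188 FPKM, RNASEK, a small pump-associated protein, at 163 FPKM and SEC13, a coat protein shared with the nutrient-sensing GATOR2 complex, at 162 FPKM, as means of the 6 libraries. Their log2 fold changes were -0.070 (-0.16 to 0.024), -0.12 (-0.23 to -0.012) and -0.073 (-0.18 to 0.034), and RNASEK measured -0.030 with the length trend removed.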

How the data were processed

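Estimated counts and FPKM values of 17513 genes were deposited by the authors as 2 tables, 1 column per library. Per the submitters' processing notes, HISAT2 2.0.4, Bowtie2 2.2.5, RSEM and GRCh38.p13 were used; what each did is not recorded there. The deposited counts are not whole for 78.9% to 80.4% of values in a library (tolerance 0.005) and were rounded. Stray annotation lines (20) were dropped from the FPKM table. Annotation, use of strand and the total behind the deposited FPKM values were not given in the sources used here.

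After rounding, 13555 genes passed filterByExpr and entered edgeR 4.0.16 (R 4.3.3): TMM scaling, then the quasi-likelihood test of shSPP1#2 minus shNC medium with no block. P-values were adjusted by Benjamini-Hochberg across these genes, and a call is an adjusted p below 0.05. Between libraries of a group, chi-square per degree of freedom was 3.20 to 4.33, above counting noise alone in every pair. The biological coefficient of variation was 4.54%. The script was checked on simulated counts.

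Members and lists were chosen with earlier results of these data known. Values of every library are given for the 2 most abundant members of each role, the 8 of smallest p and every member of a paralog group; for the context list the 6 genes of smallest p and the 3 most abundant are named; TFEB, TFE3, MITF and TFEC were added after their values were seen. The classes of effective length, the level of 4 log2 CPM and the ratios of FPKM were likewise chosen after the data were seen. Alternatives were RLE and total-count scaling, no filter, DESeq2 1.42.0, limma-voom (limma 3.58.1), limma on log2(FPKM + 1) and log2(FPKM + 0.1) for genes with a mean of at least 1 FPKM, a replicate block, removal of a loess trend over effective length, and each library left out. Intervals include the spread between libraries; the floor of 3 counts covers counting error only. Coordinates come from GENCODE v29 by Entrez number.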

Additional observations from a re-analysis of the deposited data

How the results depend on the processing

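No member was called under any alternative run; the smallest adjusted p was 0.248, for ATP6V1A with a replicate block. Over all genes, calls numbered 18 without a low-count filter, 13 with DESeq2, 1 with limma-voom and 1 to 10 with single libraries left out. Same-numbered libraries of the groups had correlations of 0.194, 0.286 and 0.089 in their deviations. Differently numbered ones ran from -0.26 to -0.013, apart from shSPP1#2 replicate 3 with shNC replicate 1 (0.117). Equal numbers thus mostly went together, but no label says that they share a batch, so the main fit had no block. The replicate block gave 59 calls over all genes, beside 0 in the main fit. Among the context genes 1 was called, SLC7A5, both with DESeq2 and with the replicate block. Members whose groups did not overlap numbered 1 with total-count scaling, 1 in FPKM and 3 to 9 of 32 with single libraries left out (9.4% to 28.1%), beside 10.9%, 10.5% and 18.2% to 25.2% of all tested genes; they numbered 2 with RLE scaling and were not recomputed for the other alternatives.

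The median log2 fold change of the members ran from -0.011 to 0.012 with single libraries left out and from 0.0036 to 0.018 in the other alternatives. Of 32 tested members, 21 kept their sign throughout. LAMTOR3 turned to 0.00095 with total-count scaling, 0.0014 with log2(FPKM + 1) and 0.0015 with log2(FPKM + 0.1). ATP6V1FNB turned to 0.0046 with total-count scaling, 0.0017 without the filter, 0.00014 with DESeq2 and 0.0015 with the block, and ATP6V0B to 0.019 with the length trend removed. With single libraries left out, 10 members crossed 0. The ranges were -0.024 to 0.063 for ATP6AP1, -0.0073 to 0.026 for ATP6AP2, -0.11 to 0.011 for ATP6V0C, -0.12 to 0.0053 for ATP6V0D2, -0.050 to 0.052 for ATP6V1FNB, -0.25 to 0.28 for ATP6V1G2, -0.022 to 0.025 for LAMTOR3, -0.040 to 0.096 for LAMTOR4, -0.053 to 0.064 for RRAGA and -0.17 to 0.048 for RRAGB. The cause of these changes was not tested. Differences of ATP6V1B1, ATP6V1G2 and ATP6V0E2, at 8 to 32 counts per library, were poorly bounded, with intervals wider than 1 on the log2 scale.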
